A study of Mus musculus with 40 samples.

Results

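DNA transposons were followed in lamin and LBR mutant mouse cells as 303 families of class DNA, out of 1243 transposable element (TE) families in the deposited table of multimapped reads, and as the 164792 annotated copies of class DNA among 3799629 copies of every class in the deposited table of uniquely mapped reads. Families were chosen by the class in their annotation name and copies by their position, so no measured value entered the choice. Of the copies, 60535 lay at least 5 kb from every gene span of the gene table and are called outside copies, 86775 lay wholly within a gene span and are called inside copies, 17453 lay between these limits, and 29 lay on unplaced sequences that carry no gene. After the filter on low counts, 273 of the 303 families and 97 of the 60535 outside copies could be tested one by one.

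The study compared naive mouse embryonic stem (mES) cells, grown in 2i medium with LIF, with epiblast-like cells (EpiLCs), made from them in 48 h with FGF at 20 ng/mL and Activin A at 12 ng/mL. Each stage held 8 wild-type (WT) libraries, 4 LBRKO libraries with Lbr, the lamin B receptor gene, disrupted, 4 TKO libraries without the 3 lamin genes Lmna, Lmnb1 and Lmnb2, and 4 QKO libraries with all 4 genes disrupted. The QKO line was 1 clone derived from the TKO line by Cas9 cutting in Lbr, with a deletion that keeps the reading frame on 1 of its Lbr alleles per the study's supplement, and the labels do not say which of several clones each LBRKO library came from. The study states gains of chromosome 8 in TKO cells and, in some WT populations, gains of chromosomes 6 and 8, with loss of chromosome Y in part of both lines. Each library came from its own culture well of these lines, so that p-values measure the spread between wells.

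DNA transposons move as DNA: a transposase, encoded by the intact elements, binds the inverted repeats at both ends, cuts the element out and inserts it elsewhere. hAT elements leave a short repeat of the target sequence on each side, and TcMar elements insert at the bases TA. In the mouse genome these elements are old, mostly short internal deletion products without a working transposase, and a read on such a copy can come from a longer transcript that runs through it. The lamins form a meshwork under the inner nuclear membrane and LBR spans that membrane, and both take part in holding gene-poor heterochromatin at the nuclear edge, which is why copies far from genes were set apart from copies inside genes.

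The hAT-Charlie superfamily was the largest, with 80 families and 105223 copies. TcMar-Tigger followed with 57 families and 27970 copies, hAT-Tip100 with 54 families and 11406 copies, and elements placed in no superfamily with 41 families and 3629 copies. The remaining families fell into 17 smaller superfamilies such as hAT-Blackjack, hAT-Ac, TcMar-Tc2 and PiggyBac. The median copy was 155 bp long. Copies had a mean GC content of 39.1% against 42.2% in windows of the same length shifted by the length of the copy plus 100 bases. The trinucleotides CAG at the start and CTG at the end, the outermost bases of hAT-Charlie inverted repeats, stood at both ends of 7.51% of hAT-Charlie copies and of 23.6% of copies of its family URR1B, against 0.0401% of the shifted windows of all class DNA copies. An 8 bp repeat in the flanking bases, with at least 7 matching, stood around 7.78% of URR1B copies and 0.122% of all shifted windows. TA stood on both sides of 0.772% of TcMar-Tigger copies and 0.443% of their shifted windows. The sequences below were read from GRCm39 on the strand of the element and are shown because the results turn on them, except URR1B_dup3328, which was chosen after its values were seen to show a copy with both ends. URR1B_dup3328 lies at chr4:141293321-141293552 on the plus strand, and its capitals mark the CAG and CTG ends. FordPrefect_dup242, at chr17:40153889-40154054 on the plus strand, and FordPrefect_dup191, at chr11:103963797-103963962 on the minus strand, have in capitals the 7 bases at which they differ over 166 aligned bases. Charlie30a_dup119 lies at chrY:90745882-90746148 on the minus strand and has every GTCT in capitals. RMER30_dup429, at chr2:172467669-172467738 on the plus strand, URR1B_dup3351, at chr4:145987619-145987702 on the plus strand, MER20_dup4903, at chr16:8823914-8824066 on the minus strand, and MER2_dup4638, at chr9:115187979-115188131 on the plus strand, hold neither end and have no capitals.
URR1B_dup3328: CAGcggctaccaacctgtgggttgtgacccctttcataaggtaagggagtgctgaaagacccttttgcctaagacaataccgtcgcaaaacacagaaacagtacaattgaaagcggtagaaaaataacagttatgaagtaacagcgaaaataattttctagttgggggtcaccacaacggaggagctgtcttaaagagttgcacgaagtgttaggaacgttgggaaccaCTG
FordPrefect_dup242: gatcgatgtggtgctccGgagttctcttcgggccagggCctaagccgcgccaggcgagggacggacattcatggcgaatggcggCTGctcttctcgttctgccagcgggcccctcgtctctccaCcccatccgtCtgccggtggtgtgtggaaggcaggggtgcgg
FordPrefect_dup191: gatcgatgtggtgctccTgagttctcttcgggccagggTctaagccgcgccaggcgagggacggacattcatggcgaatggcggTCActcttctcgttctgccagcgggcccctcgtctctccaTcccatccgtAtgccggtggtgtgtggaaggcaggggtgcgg
Charlie30a_dup119: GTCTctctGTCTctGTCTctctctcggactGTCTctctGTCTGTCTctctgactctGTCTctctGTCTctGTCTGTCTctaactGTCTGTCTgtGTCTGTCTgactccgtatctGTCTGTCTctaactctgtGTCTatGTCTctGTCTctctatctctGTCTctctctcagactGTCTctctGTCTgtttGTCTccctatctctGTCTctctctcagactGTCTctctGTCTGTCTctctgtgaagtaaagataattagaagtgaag
RMER30_dup429: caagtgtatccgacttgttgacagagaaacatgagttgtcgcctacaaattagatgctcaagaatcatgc
URR1B_dup3351: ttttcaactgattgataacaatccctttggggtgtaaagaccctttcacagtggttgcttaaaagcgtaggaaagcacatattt
MER20_dup4903: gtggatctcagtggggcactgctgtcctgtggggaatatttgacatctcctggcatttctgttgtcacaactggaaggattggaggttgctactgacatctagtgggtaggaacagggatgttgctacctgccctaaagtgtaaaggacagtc
MER2_dup4638: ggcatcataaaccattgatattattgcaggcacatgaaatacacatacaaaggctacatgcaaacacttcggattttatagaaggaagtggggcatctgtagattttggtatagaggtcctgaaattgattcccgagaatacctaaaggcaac

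Libraries held from 22.6 to 48.9 gene counts in units of 1e6. The WT libraries fell into 2 ranges of depth, replicates 1 to 4 at 25.4 to 33.5, near the TKO and QKO libraries, and replicates 5 to 8 at 39.4 to 48.9, near the LBRKO libraries. The labels name no batch, so every comparison was also made against each set of 4 WT libraries. The library WT mES 7 stood above the other WT mES libraries in 8 of the 10 most abundant families. Lmnb1 fell from a mean of 437 CPM (counts per 1e6 of the library's TMM-adjusted total) in WT mES cells to 6.99 in TKO and 11.2 in QKO mES cells, and Lbr from 329 to 178 in LBRKO and 203 in QKO mES cells. All 7 naive markers were lower and all 5 epiblast markers higher in WT EpiLCs than in WT mES cells. Markers of fibroblasts, primitive endoderm and trophectoderm stayed at or under 9 CPM in every group mean.

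A single copy held most reads of the class. FordPrefect_dup242, a 166 bp hAT-Tip100 copy that ends 3190 bp before the 18S ribosomal RNA gene Rn18s-rs5, took 67.8% of the 27297620 unique counts on class DNA copies over all libraries and 97.0% of those on copies between the limits. Its bases, with a GC content of 66.9% against a mean of 39.1% for the class, are printed above. Rn18s-rs5 itself held 6471449 counts after the depletion of ribosomal RNA that the library kit includes. The family FordPrefect stood at a mean of 10859 CPM over the 40 libraries, and the next family, URR1A, at 342.9 CPM. FordPrefect did not pass the test in any comparison with WT: its log2 fold change in QKO cells was 0.11 ± 0.142 (SE, adjusted p = 0.574) in mES cells and -0.23 ± 0.144 (adjusted p = 0.165) in EpiLCs. FordPrefect_dup191, which matches dup242 at 159 of 166 bases, lay 59719 bp from the nearest gene span and held 36110 counts, 20.3% of all counts on outside copies. Its level varied widely within groups, from 9.82 to 38.2 CPM in WT mES cells and from 23.0 to 81.7 CPM in TKO EpiLCs. Whether its reads came from the chromosome 11 copy or from ribosomal sequence was not tested, and several results on summed outside copies are therefore also given without it.

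Copies outside genes gave few reads, and these were higher in TKO mES cells and in QKO cells of both stages than in WT. Outside copies held 178118 counts over 40 libraries, or 16.3 counts per kb of copy, against 225 per kb for inside copies that overlap no exon and 5458 per kb for those that overlap an exon. Of the outside copies, 22.4% had a count in any library. Scaled to the gene counts, the outside copies summed to between 88.4 and 139.8 CPM in the 8 WT mES libraries, with a median of 111.6. The 4 LBRKO mES libraries stood at 112.5, 116.9, 120.8 and 136.9 CPM. The 4 TKO mES libraries stood at 154.8, 139.9, 154.1 and 162.1 CPM. The 4 QKO mES libraries stood at 225.7, 224.2, 256.0 and 225.3 CPM. Thus every TKO and every QKO mES library lay above every WT mES library, while the LBRKO libraries lay among the WT ones. For TKO this separation was narrow, 139.9 against 139.8 CPM, and the ranges overlapped without FordPrefect_dup191, without chromosomes 6, 8, X and Y, without the 100 highest copies, without TMM factors and at 50 kb. In EpiLCs the WT libraries ran from 61.1 to 103.2 CPM with a median of 92.8, and the QKO libraries stood at 158.5, 177.2, 178.6 and 177.6 CPM. LBRKO EpiLCs stood at 107.3, 90.8, 138.1 and 122.4 CPM and TKO EpiLCs at 135.1, 90.8, 98.0 and 90.4 CPM, both overlapping WT.

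**Figure D1:**
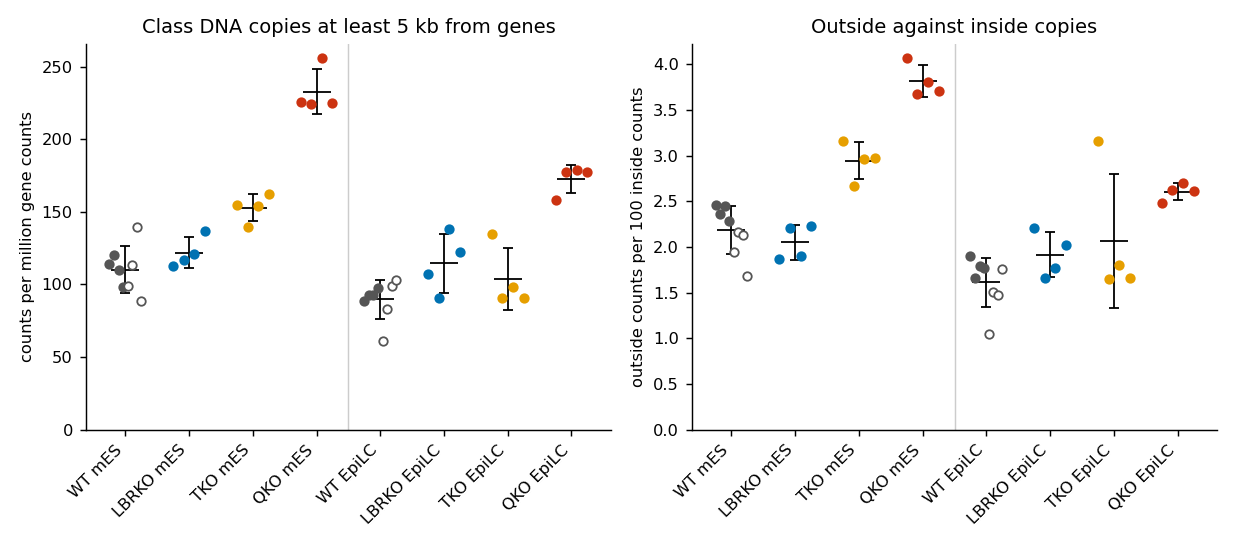
Summed counts on class DNA copies at least 5 kb from genes, in CPM relative to gene counts (left), and outside counts per 100 counts on copies inside genes (right), for each of the 40 libraries by group. Filled points are replicates 1 to 4, open points WT replicates 5 to 8, and bars give the mean ± SD. QKO libraries stand above all WT libraries of their stage in both panels, with means of 232.8 and 173.0 CPM against 110.3 and 89.8.

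The differences were tested by exact two-sided permutation over the libraries, adjusted over 7 comparisons and 2 measures. The smallest p is 0.00404 for 8 libraries against 4, or 0.00808 after this adjustment. Outside counts were 2.13-fold higher in QKO than in WT mES cells, at 232.8 ± 15.5 (SD, n = 4) against 110.3 ± 15.9 CPM (n = 8), a log2 difference of 1.09 ± 0.086 (SE, adjusted permutation p = 0.00808). In QKO EpiLCs they were 1.95-fold higher, at 173.0 ± 9.66 (n = 4) against 89.8 ± 13.2 CPM (n = 8), a log2 difference of 0.96 ± 0.094 (adjusted permutation p = 0.00808). Without FordPrefect_dup191 the log2 differences were 1.24 in QKO mES cells and 1.22 in QKO EpiLCs (adjusted permutation p = 0.00943 each), and 0.49 in TKO mES cells (adjusted permutation p = 0.0485). TKO mES cells stood 1.40-fold higher, at 152.8 ± 9.27 CPM (log2 difference 0.48 ± 0.085, adjusted permutation p = 0.00808). TKO EpiLCs gave 0.20 ± 0.161 (adjusted permutation p = 0.296), which became -0.05 without FordPrefect_dup191. LBRKO mES cells gave 0.15 ± 0.095 (adjusted permutation p = 0.252) and LBRKO EpiLCs 0.35 ± 0.155 (adjusted permutation p = 0.0503), both short of the threshold. The LBRKO EpiLC value passed at a distance of 10 kb (0.39, adjusted permutation p = 0.0314). It also passed for copies at least 5 kb from GENCODE M39 genes as well (0.35, adjusted permutation p = 0.0354). QKO cells exceeded TKO cells by 0.61 ± 0.064 in mES cells and 0.76 ± 0.143 in EpiLCs, with no overlap (exact permutation p = 0.0286 in each, the smallest that 4 against 4 allows). WT EpiLCs were lower than WT mES cells by 0.30 ± 0.111 on the log2 scale (adjusted permutation p = 0.016), with overlapping libraries, and without FordPrefect_dup191 the value was -0.33 (adjusted permutation p = 0.0511). These are values of bulk samples, in which more transcribing cells and more RNA per cell cannot be told apart.

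Inside genes, the summed counts moved less, and the part of them on introns stood higher in QKO cells. All inside copies stood at 6111 ± 484 CPM in QKO against 5080 ± 697 CPM in WT mES cells (log2 difference 0.27, adjusted permutation p = 0.113). There were 3.82 ± 0.18 outside counts per 100 inside counts in QKO mES cells, 2.94 ± 0.20 in TKO, 2.05 ± 0.19 in LBRKO and 2.18 ± 0.27 in WT mES cells. The ratio was 1.76-fold higher in QKO mES cells (adjusted permutation p = 0.00808), 1.64-fold higher in QKO EpiLCs (0.00808, likewise) and higher by 0.44 on the log2 scale in TKO mES cells (0.00808, likewise). It was lower in WT EpiLCs than in WT mES cells, by a log2 difference of -0.45 (adjusted permutation p = 0.00808). When only inside copies that overlap no exon were used, the ratio was higher by 0.32 in QKO mES cells (adjusted permutation p = 0.0727), by 0.24 in QKO EpiLCs (0.113, likewise) and by 0.25 in TKO mES cells (0.113, likewise), so that none of these passed. These ratios kept FordPrefect_dup191 among the outside copies and were not tested without it. Without that copy, the outside copies summed to means of 198 CPM in QKO, 117 in TKO and 85.2 in WT mES cells. In EpiLCs the means without it were 155 CPM in QKO and 67.7 CPM in WT. The intronic copies themselves summed to a mean of 2824 CPM in QKO against 1679 CPM in WT mES cells. These groups overlapped, with WT mES 7 at 2712 CPM and QKO mES 1 at 2283 CPM. In EpiLCs the means were 3311 CPM in QKO and 2040 CPM in WT, with every QKO library above every WT library.

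By distance from the nearest gene span, with FordPrefect_dup191 left out, the QKO difference was near 0 on exons and above 0 in every other class of place. Copies that overlap an exon gave log2 differences of -0.04 ± 0.044 in QKO mES cells and -0.10 ± 0.045 in QKO EpiLCs. Intronic copies gave 0.77 ± 0.168 and 0.72 ± 0.105. Copies less than 5 kb from a gene, FordPrefect_dup242 left out, gave 0.34 ± 0.052 and 0.28 ± 0.034. Copies at 5 to 10 kb gave 1.10 ± 0.126 and 0.98 ± 0.086, and copies at 10 to 50 kb gave 1.34 ± 0.129 and 1.41 ± 0.106. Farther out the values for QKO mES cells were 1.12 at 50 to 100 kb, 1.45 at 100 to 200 kb and 2.37 ± 0.402 beyond 200 kb, where the 1370 copies held only 545 counts in all. These classes of distance were compared as values and the differences between them were not tested. With FordPrefect_dup191 kept in, all copies at least 50 kb out gave 0.31 in QKO EpiLCs (adjusted permutation p = 0.33), short of the threshold.

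**Figure D2:**
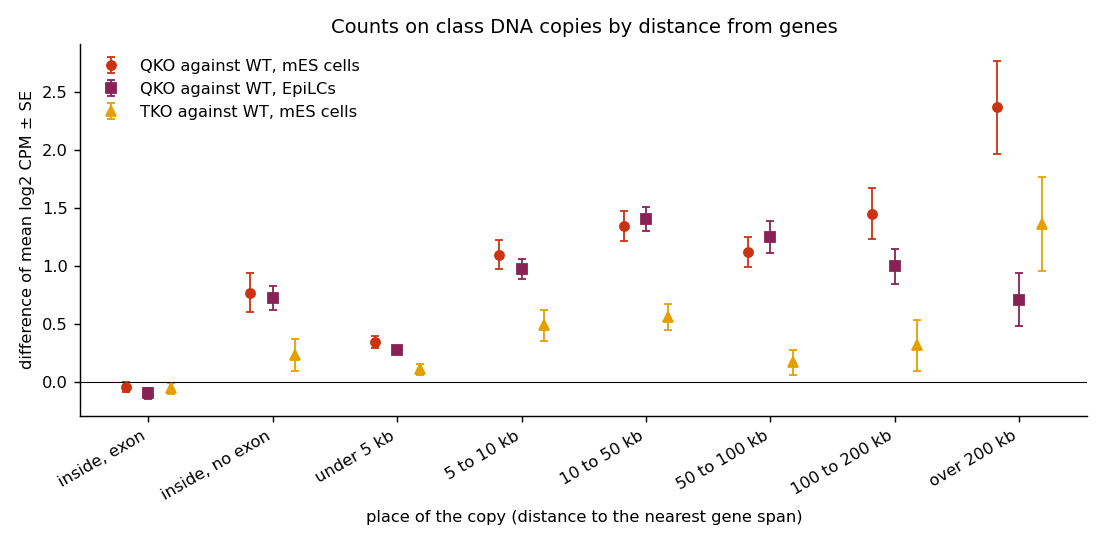
Difference of mean log2 CPM (± SE) between mutant and WT libraries for class DNA copies by place, with distances to the nearest gene span, FordPrefect_dup242 and FordPrefect_dup191 left out. In QKO mES cells the difference runs from -0.04 on exons to 2.37 beyond 200 kb, the last resting on 545 counts.

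A later gene annotation shortened the list of copies outside genes. In GENCODE M39, on the same build, 14232 of the 60535 outside copies, with 35.9% of the outside counts, lie within a gene span, and 19215 lie within 5 kb of one. Leaving out the copies within 5 kb gave log2 differences of 1.00 in QKO mES cells, 0.50 in TKO mES cells and 0.60 in QKO EpiLCs, the last down from 0.96, each still with no overlap with WT. The ratio in QKO EpiLCs became 0.35 (adjusted permutation p = 0.107). FordPrefect_dup191, 20856 bp from the nearest GENCODE M39 gene, stayed in these values, which were not computed without it. Its mean was 18.0 CPM in QKO and 22.1 CPM in WT EpiLCs. The part of this copy in the smaller EpiLC values was not tested.

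The rise outside genes was shared by other classes of TE. Summed over outside copies, QKO mES cells stood 2.13-fold above WT for class DNA, 2.75-fold for LINE, 2.55-fold for SINE and 2.5-fold for LTR copies. In EpiLCs the folds were 1.95, 1.84, 2.2 and 1.75. The class DNA folds include FordPrefect_dup191. Without that copy, the class DNA log2 difference in EpiLCs, given above, exceeded those of LINE (0.88), SINE (1.14) and LTR copies (0.81). In mES cells it stayed under those of LINE (1.46), SINE (1.35) and LTR copies (1.32). The ancient retrotransposons L2 and MIR, with 64094 outside copies, stood 2.31-fold and 2.17-fold above WT. The ratio of outside DNA to outside L2 and MIR counts passed no test in the 7 comparisons (lowest adjusted permutation p = 0.358), with -0.12 ± 0.063 for QKO mES cells and -0.16 ± 0.074 for QKO EpiLCs. Without FordPrefect_dup191 the QKO EpiLC value was 0.10 ± 0.023 (adjusted permutation p = 0.0283), the QKO mES value 0.03 (adjusted permutation p = 0.262) and the value of WT EpiLCs against WT mES cells -0.06 (adjusted permutation p = 0.0495). Within the class, the superfamilies with most reads moved alike: outside hAT-Charlie copies rose from 55.0 ± 11.8 to 127 ± 12.8 CPM in QKO mES cells, TcMar-Tigger copies from 11.6 ± 3.76 to 29.8 ± 3.45, and hAT-Tip100 copies, FordPrefect_dup191 left out, from 9.51 ± 2.03 to 19.2 ± 2.15. In none of these 3 did a QKO library overlap a WT library. Family by family, with the unique counts of each family summed over its outside copies, 71 of 107 tested sums were called higher in QKO mES cells and 42 in QKO EpiLCs (edgeR), where 79.7% and 62.3% of the outside sums of every class were higher. Summed over inside copies, 25 and 24 of 268 were called higher, against 13.9% and 13.2%.

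At the level of families, which count reads inside and outside genes together, the change in QKO cells was wide and small. A family was called at an adjusted p under 0.05 and a fold change over 2 in edgeR's quasi-likelihood test, with Benjamini-Hochberg adjustment over all 26508 genes and TE families tested. In QKO mES cells 34 of 273 families were called against WT, all higher, where 9.15% of all features were higher and 7.05% lower, and 25.1% of the TE families of every class were higher. With the adjusted p alone, 175 were called, all higher (20.1% of features), and the median log2 fold change of the 273 was 0.69. In QKO EpiLCs 34 families were again called, all higher, against 12.5% of all features higher, 7.58% lower and 26% of TE families higher, with 197 higher and 1 lower by adjusted p alone (26.8% and 29.8% of features) and a median of 0.73. The same 13 families were called in both stages, 38.2% of each list. This overlap was not computed for all features or for TE families of every class. The QKO mES count varied with the libraries used: it was 104 against WT replicates 1 to 4 and 10 against WT replicates 5 to 8, 57 without WT mES 7 and 22 without QKO mES 3. In EpiLCs it was 74 against WT replicates 1 to 4 and 61 without WT EpiLC 7.

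The other comparisons called few families. LBRKO mES cells had 1 higher family (2.5% of all features were higher and 3.4% lower) and LBRKO EpiLCs 3 higher (2.89% and 2.44%). TKO mES cells had 1 higher and 1 lower (2.26% and 3.75% of features), and TKO EpiLCs 1 higher and 2 lower (1.43% and 1.29%). WT EpiLCs differed from WT mES cells by 9 higher and 2 lower families, where 16.5% and 12.5% of features moved. QKO exceeded TKO cells in 10 families in mES cells (3.69% of features were higher and 2.23% lower) and 49 in EpiLCs (9.47%), with 1 lower in EpiLCs (5.21%). The median log2 fold change was 0.37 in LBRKO mES cells and 0.34 in LBRKO EpiLCs, with 257 and 263 of the 273 above 0. The share of all features above 0 was not computed, so these numbers do not set the families apart from other features. The LBRKO family counts also varied with the set of WT libraries used, as given below. Single libraries moved these small counts: LBRKO mES families numbered 7 without WT mES 7, 4 without LBRKO mES 1, 3 without WT mES 6 or LBRKO mES 2, and 2 without WT mES 1, 3, 5 or 8 or LBRKO mES 3. LBRKO EpiLC families numbered 9 without LBRKO EpiLC 1, 6 without WT EpiLC 7 and 1 without WT EpiLC 1 or 6, and none of the 3 was called without LBRKO EpiLC 3. The count of QKO against TKO mES cells was 17 without TKO mES 4, 18 without QKO mES 1 and 6 without QKO mES 3.

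**Figure D3:**
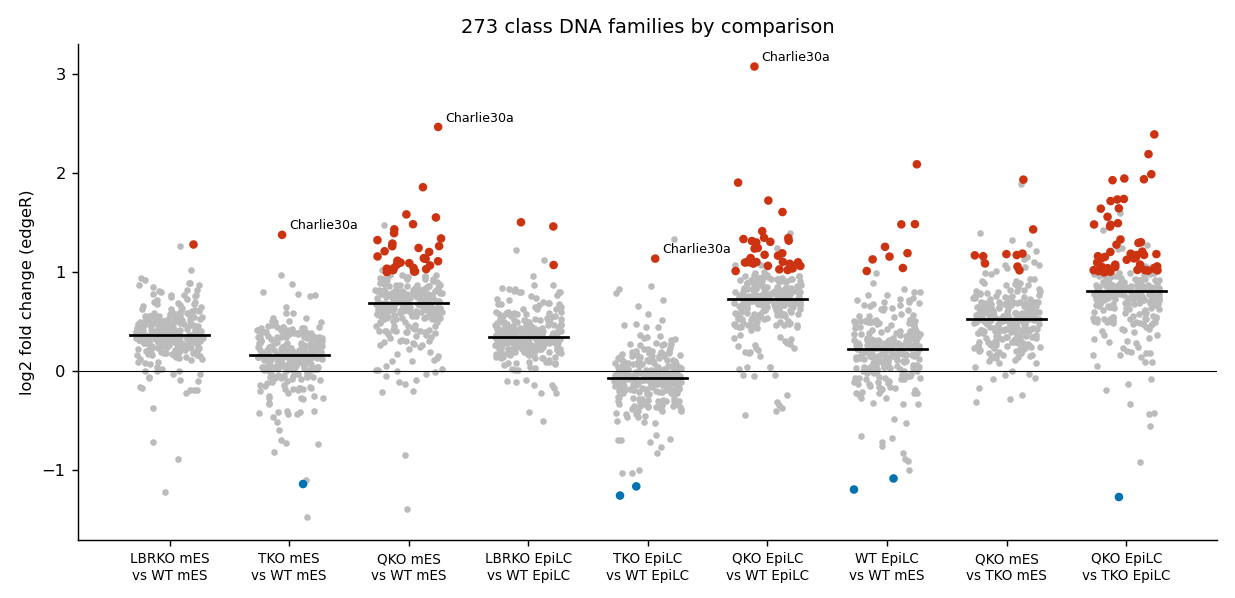
Log2 fold changes of the 273 tested class DNA families (points) in 9 comparisons, with the median as a line. Families called higher are red and families called lower are blue. In both QKO comparisons with WT the whole set is shifted, with medians of 0.69 and 0.73, and Charlie30a is highest.

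The most abundant families rose by less than 2-fold. Of the 10 with the highest mean CPM, 9 were higher by adjusted p in QKO mES cells and 9 in QKO EpiLCs, and FordPrefect was the exception in both. URR1A, a rodent hAT-Charlie family of short copies, ran from 216 to 410 CPM in WT mES cells and stood at 356, 424, 486 and 432 CPM in QKO mES cells, where only WT mES 7 overlapped the QKO range. Its log2 fold change was 0.68 ± 0.146 in QKO mES cells (edgeR adjusted p = 0.000184) and 0.78 ± 0.146 in QKO EpiLCs (edgeR adjusted p = 1.86e-05). MER2, the most abundant TcMar-Tigger family, had means of 127 ± 33.9 CPM in WT and 205 ± 27.3 in QKO mES cells, and 145 ± 26.0 and 232 ± 10.3 in EpiLCs. OldhAT1, the most abundant hAT-Ac family, had means of 61.4 ± 6.13 and 81.5 ± 6.47 CPM in WT and QKO mES cells. Of the superfamilies, 65 of 79 hAT-Charlie families, 38 of 55 TcMar-Tigger families and 33 of 51 hAT-Tip100 families were higher in QKO mES cells by adjusted p alone, where 20.1% of all features were higher, with medians of 0.70, 0.68 and 0.68. In EpiLCs, where 26.8% of features were higher, these numbers were 68, 40 and 38, with medians of 0.73, 0.69 and 0.77.

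Charlie30a rose most. This small hAT-Charlie family stood at 0.824 to 2.19 CPM in the WT mES libraries, at 3.22, 2.82, 4.6 and 3.85 in TKO and at 7.01, 6.85, 9.23 and 7.83 in QKO mES cells. In EpiLCs it stood at 1.30 to 2.64 CPM in WT, at 3.72, 3.59, 3.98 and 3.63 in TKO and at 17.0, 13.7, 13.4 and 13.2 in QKO libraries. The TKO and QKO libraries lay above all WT libraries of their stage, and the QKO libraries above the TKO ones. Its log2 fold changes against WT were 1.38 ± 0.194 in TKO and 2.47 ± 0.187 in QKO mES cells (edgeR adjusted p = 5.85e-07 and 4.56e-14), and 1.14 ± 0.193 and 3.08 ± 0.183 in EpiLCs (edgeR adjusted p = 3.9e-05 and 3.08e-17). In EpiLCs the QKO change exceeded the sum of the LBRKO and TKO changes by 1.42 ± 0.296 (edgeR adjusted p = 0.000327). In mES cells no class DNA family was called in this test.

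In QKO cells most unique counts of Charlie30a lay on 2 copies of chromosome Y. Charlie30a_dup119, printed above, lay 17548 bp from the nearest gene span of the gene table and within the later annotated long noncoding RNA gene Gm57952. It is rich in the repeat GTCT, with 27 GTCT covering 40.4% of its bases, against a median of 1.89% over class DNA copies and 15.4% over Charlie30a copies. It held 11 counts in all 8 WT mES libraries together and stood at 0.892, 1.61, 2.24 and 2.19 CPM in TKO and 4.13, 3.45, 5.89 and 4.39 CPM in the QKO mES libraries. In EpiLCs WT libraries ran from 0 to 0.26 CPM, TKO libraries stood at 1.94, 1.99, 1.72 and 1.48 and QKO libraries at 12.8, 9.5, 9.23 and 7.34. LBRKO libraries stayed at or under 0.334 CPM in both stages, and their range overlapped WT. The log2 fold change of dup119 was 6.76 ± 0.377 in QKO mES cells (edgeR adjusted p = 2.3e-27) and 6.37 ± 0.322 in QKO EpiLCs (edgeR adjusted p = 5.4e-30), and 5.40 and 3.93 in TKO cells. Charlie30a_dup120, an inside copy in the gene Erdr1y that aligns to dup119 with 191 identical bases, 3 mismatches and 73 gaps, rose from 0.607 to 3.5 CPM in mES cells and from 1.08 to 4.58 CPM in EpiLCs between the WT and QKO means. Counts on near-identical copies can be split between them, and reads that fit both were not counted. Without both copies the family's unique counts gave 0.855 ± 0.24 CPM in WT and 1.56 ± 0.44 in QKO mES cells, and 1.11 ± 0.25 and 2.11 ± 0.25 in EpiLCs. Genes of chromosome Y moved in the same groups: all of them together stood at 193 ± 16.5 CPM in WT, 166 in LBRKO, 247 in TKO and 428 ± 10.6 in QKO mES cells, and Kdm5d, a histone demethylase gene, rose from 0.449 CPM in WT to 19.3 in QKO mES cells. The part of chromosome Y number in these values was not tested.

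The other families with large changes were rare and of low count. In QKO mES cells the next were MamRep488 (log2 fold change 1.86 ± 0.376, edgeR adjusted p = 7.69e-05), which stood at 0.0853 to 0.336 CPM in WT and 0.527, 0.833, 0.626 and 0.886 in QKO libraries, then MER96 (1.59), UCON7 (1.56), EuthAT-N1 (1.49), UCON35 (1.43), X24_DNA (1.40) and X4a_DNA (1.34). In QKO EpiLCs they were Eulor1 (1.91 ± 0.509, edgeR adjusted p = 0.0016), which stood at 0 to 0.25 CPM in WT and 0.432, 0.49, 0.464 and 0.401 in QKO libraries, then MER133B (1.73), Eutr15 (1.61), X2a_DNA (1.42), Eulor6D (1.35), MARE4 (1.35) and UCON35 (1.34). The Eulor, UCON and X_DNA names belong to old repeats found as conserved sequence across vertebrates or mammals. In LBRKO cells the called families were X11_DNA in mES cells (1.28 ± 0.344, edgeR adjusted p = 0.00476) and MER133B (1.51), Eulor11 (1.46) and Eulor9C (1.07) in EpiLCs. The LBRKO and WT libraries overlapped for all of these except MER133B, which stood at 0.449, 0.406, 0.782 and 0.58 CPM in LBRKO EpiLCs and at most at 0.326 CPM in WT EpiLCs. In TKO cells Charlie7a fell by 1.14 ± 0.27 on the log2 scale in mES cells, with libraries at 0.331, 0.582, 0.318 and 0.567 CPM below all WT libraries (0.711 to 1.43). ORSL-2a fell by 1.26 ± 0.344 in TKO EpiLCs, with libraries at 0.157, 0.18, 0.16 and 0.128 CPM below all WT libraries (0.207 to 0.592), and X11_DNA fell by 1.16 ± 0.394. Against TKO cells, QKO mES cells were higher most in MER91C (1.94), FordPrefect_a (1.43), UCON7 (1.19), UCON35 (1.18) and Charlie10a (1.18), and QKO EpiLCs in X2b_DNA (2.39), Eulor8 (2.19), MER125 (1.99), ORSL-2a (1.95) and Charlie30a (1.94), with Eulor12 lower (-1.27).

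Between the stages, MamTip1, a hAT-Tip100 family, rose most. It stood at 0.154 to 0.575 CPM in WT mES cells and 0.858 to 2.03 CPM in WT EpiLCs, with no overlap (log2 fold change 2.09 ± 0.242, edgeR adjusted p = 7.14e-10). In every EpiLC group it stood above the mES group of the same genotype, at 1.02, 1.23, 0.866 and 1.02 CPM in TKO and 1.45, 1.82, 1.39 and 1.6 in QKO EpiLCs. UCON100 (1.49), UCON37 (1.49), EuthAT-N1 (1.26) and X11_DNA (1.19) also rose, and Eulor11 (-1.08) and Eulor1 (-1.19) fell.

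Copy by copy, 97 outside copies could be tested, at 85 loci at least 50 kb apart, among them 61 hAT-Charlie, 15 TcMar-Tigger and 12 hAT-Tip100 copies. Of these, 45 were higher and 3 lower in QKO than in WT mES cells, where 54.8% of the tested outside copies of every class were higher and 2.82% lower, so the share of 46.4% lies under the background. In QKO EpiLCs 43 were higher and 1 lower, against 49.2% and 2.73%. In 30 of the 45 and in 30 of the 43 every QKO library lay above every WT library. How often this held among outside copies of every class was not computed. Of the 45, 21 lay in a gene span of GENCODE M39, and of the 43, 22, where 51 of all 97 tested copies did. TKO mES cells had 10 higher and 2 lower (background 21% and 2.08%), TKO EpiLCs 1 higher (11%, with 1.78% lower), LBRKO mES cells 1 higher and 3 lower (0.363% and 2.62%) and LBRKO EpiLCs 6 higher (3.07%). From WT mES cells to EpiLCs, 53 were lower and 5 higher, against 28.8% and 16.3%, with a median log2 fold change of -1.89 over the 97. Of the smaller counts, the 12 calls in TKO mES cells became 4 without TKO mES 2 and 6 without TKO mES 1 or 4, the 4 in LBRKO mES cells became 7 without WT mES 7 and 2 without LBRKO mES 3, and none was left without LBRKO mES 4. The 6 in LBRKO EpiLCs became 3 without LBRKO EpiLC 3, and the 1 in TKO EpiLCs became 2 without TKO EpiLC 2. A copy passed the filter mostly through the group where it is high, so these counts do not speak for the 60535 outside copies. Decreases were also harder to call. In simulated data for QKO against WT mES cells, 16% of decreases to 0.25-fold were recovered, against 58% of 4-fold increases.

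MER20_dup4903, a hAT-Charlie copy within the later annotated noncoding gene Gm30444, stood at 0 to 0.218 CPM in WT mES cells and at 1.56, 1.30, 1.73 and 1.54 CPM in the QKO mES libraries, with all QKO libraries above all other mES libraries. Its log2 fold change was 4.27 ± 0.505 (edgeR adjusted p = 1.54e-10). In EpiLCs no library passed 0.18 CPM. MER33_dup219 stood at 0 to 0.109 CPM in WT and 0.91, 0.958, 0.825 and 0.961 CPM in the QKO mES libraries (4.06 ± 0.617, edgeR adjusted p = 4.19e-07), and had no count in any of the 20 EpiLC libraries. MER5A1_dup1772 rose by 3.79 ± 0.597 on the log2 scale in QKO mES cells and by 2.53 ± 0.563 in QKO EpiLCs.

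A pair of copies about 1 kb apart on chromosome 9, within the later annotated gene Gm30762, was counted in QKO cells of both stages. MER20_dup2882 stood at 1.10, 0.996, 0.628 and 0.618 CPM in the QKO mES libraries and 1.26, 0.991, 0.753 and 1.26 CPM in QKO EpiLCs, against at most 0.101 and 0.147 CPM in WT. Its neighbour MER2_dup4638, a TcMar-Tigger copy, stood at 0.747, 0.575, 0.746 and 0.789 CPM in the QKO mES libraries and at 0.33, 0.25, 0.295 and 0.183 CPM in TKO mES cells. In WT mES cells MER2_dup4638 ran from 0 to 0.203 CPM, with 19 counts in 5 of 8 libraries, and overlapped TKO. In EpiLCs MER2_dup4638 had no count in any WT, LBRKO or TKO library and stood at 0.468, 0.512, 1.15 and 0.785 CPM in the QKO libraries, at least 72.6-fold higher than the floor of 3 counts over the WT group. As neighbours in 1 gene span these copies are not independent observations.

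Tigger5a_Glire_dup815, within the later annotated gene Gm73299, also had no count in WT EpiLCs and stood at 0.864, 0.32, 0.95 and 0.756 CPM in QKO EpiLCs, at least 71.0-fold higher than the same floor. Charlie16a_dup112 stood at no more than 0.025 CPM in WT EpiLCs and at 0.504, 0.288, 0.622 and 0.672 CPM in QKO EpiLCs (log2 fold change 4.97 ± 0.631, edgeR adjusted p = 8.78e-10). MER3_dup1034 rose in QKO EpiLCs by 4.87 ± 0.502 (edgeR adjusted p = 3.76e-13) and in TKO mES cells by 1.58 ± 0.441 (edgeR adjusted p = 0.0179), and lies on chromosome 6, of which the study states a gain in some WT cells.

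RMER30_dup429 was counted only in mES cells among these 40 libraries. This 70 bp copy, 17571 bp from the nearest gene of GENCODE M39, stood at 2.2 to 3.63 CPM in the 8 WT mES libraries, which together held 862 counts, and had no count in any of the 20 EpiLC libraries of any genotype, which makes it at least 290-fold higher in WT mES cells against a floor of 3 counts over the WT EpiLC group. In the mutants it stood at 3.2, 2.55, 2.7 and 2.55 CPM in LBRKO, 2.44, 1.71, 1.97 and 2.23 in TKO and 1.72, 1.34, 1.89 and 1.61 in QKO mES cells. The QKO libraries lay below all WT libraries, with a log2 fold change of -0.85 ± 0.239 (edgeR adjusted p = 0.00588), less than 2-fold.

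**Figure D4:**
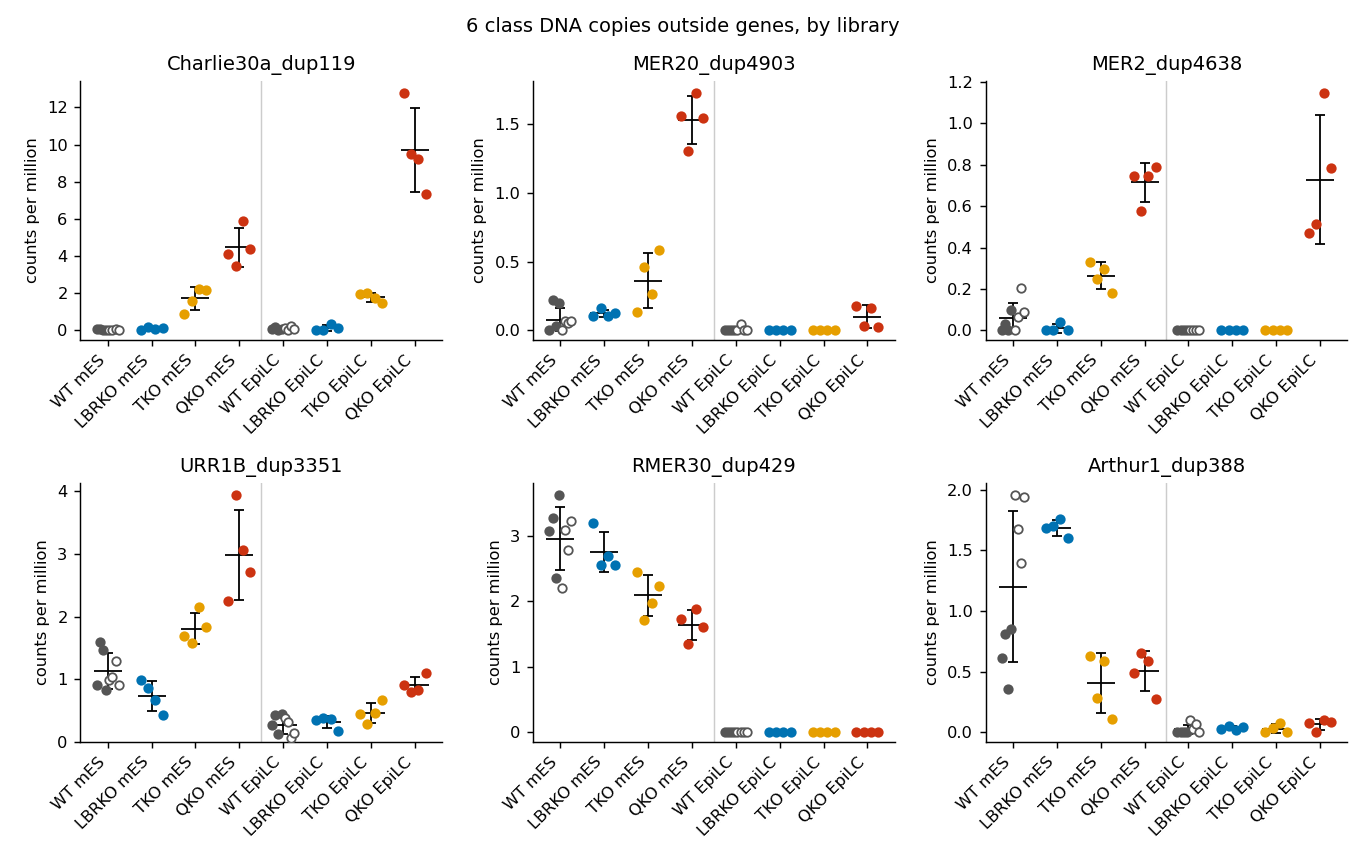
CPM of 6 class DNA copies outside genes in each of the 40 libraries by group, with the mean ± SD; filled points are replicates 1 to 4 and open points WT replicates 5 to 8. Charlie30a_dup119, MER20_dup4903 and MER2_dup4638 are highest in QKO cells, RMER30_dup429 has no count in EpiLCs, and Arthur1_dup388 separates the WT mES libraries into 0.357 to 0.851 and 1.40 to 1.96 CPM.

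URR1B_dup3351 moved with both stage and genotype. It stood at 0.818 to 1.59 CPM in WT and 2.24, 3.95, 3.06 and 2.71 CPM in the QKO mES libraries, and at 0.065 to 0.441 CPM in WT and 0.90, 0.799, 0.819 and 1.09 CPM in QKO EpiLCs. Its log2 fold change was 1.41 ± 0.262 in QKO mES cells (edgeR adjusted p = 1.93e-05), 1.76 ± 0.308 in QKO EpiLCs (edgeR adjusted p = 4.39e-06) and -2.07 ± 0.26 from WT mES cells to WT EpiLCs (edgeR adjusted p = 3.53e-10). URR1A_dup4914 fell by 2.54 ± 0.398 on the log2 scale in WT EpiLCs. Charlie4a_dup642, the remaining one of the 5 most abundant outside copies, was under 2-fold in every comparison with WT and higher in QKO EpiLCs by 0.80 ± 0.275 (edgeR adjusted p = 0.0189).

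Arthur1_dup388, a hAT-Tip100 copy within the later annotated gene Gm33827, was near 0 in EpiLCs, and in mES cells it divided the libraries as their depth did. WT mES replicates 1 to 4 stood at 0.615, 0.81, 0.357 and 0.851 CPM and WT mES replicates 5 to 8 at 1.96, 1.68, 1.40 and 1.94 CPM. The LBRKO mES libraries, of similar depth to WT replicates 5 to 8, stood at 1.68, 1.7, 1.76 and 1.6 CPM. TKO libraries stood at 0.628, 0.286, 0.589 and 0.11 CPM and QKO libraries at 0.487, 0.651, 0.589 and 0.274, within or below the range of WT replicates 1 to 4. No EpiLC library passed 0.099 CPM, and the log2 fold change between the WT stages was -5.34 ± 0.455 (edgeR adjusted p = 3.76e-17). The lower values in TKO (-1.56 ± 0.414) and QKO mES cells (-1.28 ± 0.407) overlap WT and cannot be told apart from the division among the WT libraries.

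Few of the genes that descend from DNA transposases were called. Of 27 such genes listed, 26 were found and 23 tested. In QKO mES cells Pgbd5, a domesticated PiggyBac transposase gene, was called lower (log2 fold change -1.13 ± 0.124, edgeR adjusted p = 7.67e-10), with means of 9.15 CPM in WT and 4.17 CPM in QKO mES cells. In QKO EpiLCs Thap3, which has the DNA-binding domain shared with P element transposase, was called lower (-1.18 ± 0.15, edgeR adjusted p = 1.75e-08). By adjusted p alone 11 were lower in QKO mES cells, where 28.5% of features were lower, and 8 in TKO mES cells, where 16% of features were lower and 7.38% higher, and 6 were higher and 10 lower in QKO EpiLCs, where 26.8% of features were higher and 29.8% lower, with median log2 fold changes of -0.20, -0.22 and -0.13. LBRKO EpiLCs had 4 higher and 8 lower, LBRKO mES cells 3 lower and TKO EpiLCs 2 lower. The shares of features at this threshold are not given here for these 3 comparisons. From WT mES cells to EpiLCs Pogk (1.99), Thap2 (1.45) and Pgbd1 (1.25) were called higher, where 16.5% of features were. Rag1, Rag2 and Tigd4, the first of them a subunit of the lymphocyte recombinase of transposase origin, stood near 0 CPM in every group and were not tested.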

How the data were processed

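Total RNA of 40 wells was sequenced as stranded, ribosomal RNA depleted libraries. Per the study's methods and the labels, the authors trimmed reads with cutadapt 2.5, aligned them to GRCm39 with STAR 2.7.10a and deposited counts: unique reads per GENCODE M30 gene and per TE copy from featureCounts 1.6.4, and TEcount counts per gene and TE family with up to 100 alignments a read. The strand setting of the counting is not given in the sources used here. All values here were computed from these counts. Families and copies were fitted with edgeR 4.0.16 (R 4.3.3), TMM factors and filterByExpr over the 8 groups, on 26508 features and 134958 copies, without pairing of replicates, and called at a Benjamini-Hochberg adjusted p under 0.05 and over 2-fold. CPM of copies are relative to TMM-adjusted gene counts. Sums over copies were compared on log2 values by exact permutation (scipy 1.17.1, two-sided). Alternatives were DESeq2 1.42.0, other filters and distances, each set of WT libraries, and each library left out. Named families were taken from the 10 most abundant, the most abundant of each superfamily and, per comparison, the 5 called ones (8 for QKO against WT) with the largest change in each direction. Named copies were the 5 most abundant and, per comparison, the 5 called ones with the largest change in each direction, no overlap and at least 0.5 CPM in the higher group. Members and lists were chosen with earlier results of these data known. On simulated data for QKO against WT mES cells, the family fit recovered 78% of 2.5-fold and 98% of 4-fold increases, and the copy fit 20% and 58%. Of decreases to 0.4-fold and 0.25-fold, the family fit recovered 66% and 92%, and the copy fit 10% and 16%.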

Additional observations from a re-analysis of the deposited data

Results flagged for a closer look

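In groups of 4 to 10 libraries, a library was marked where its gap to the nearest other library, as a share of the group's range, passed Dixon's critical value. This was tested in 164 groups of libraries and measures, and chance marks about 1 in 20. TKO EpiLC 1 stood apart in 7 of the measures and WT mES 7 in 9. In TKO EpiLC 1 the outside copies summed to 135.1 CPM against 98.0 in the nearest library (share of range 0.830) and the inside copies to 4269 against 5443 CPM (0.957). There the outside counts per 100 inside counts were 3.16 against 1.80 (0.903), and the outside DNA counts per 100 L2 and MIR counts 230.0 against 126.6 (0.895). FordPrefect_dup191 stood at 81.7 against 26.7 CPM (0.937), URR1A at 249.6 against 319.5 CPM (0.853) and MER5A at 72.7 against 90.5 CPM (0.881). WT mES 7 stood high on inside copies, at 6555 against 5241 CPM (0.582). In the same library URR1A stood at 410.3 against 276.0 CPM (0.692), URR1B at 327.5 against 218.4 (0.697), MER2 at 205.9 against 129.6 (0.690), RCHARR1 at 142.7 against 89.8 (0.659) and MER20 at 137.1 against 89.4 (0.699). MER5A stood there at 121.5 against 80.0 CPM (0.643), Charlie1a at 89.7 against 56.0 (0.640) and MER5B at 77.6 against 51.8 (0.651). The outside copies were high in QKO mES 3, at 256.0 against 225.7 CPM (0.954), and low in QKO EpiLC 1, at 158.5 against 177.2 CPM (0.931). OldhAT1 was low in TKO mES 2, at 64.6 against 69.04 CPM (0.838). Charlie30a was high in WT EpiLC 7, at 2.64 against 1.79 CPM (0.630), and in QKO EpiLC 1, at 17.0 against 13.7 CPM (0.858).

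Differences between changes were tested in edgeR's quasi-likelihood fit and called by the same rule as single changes. The shares of all features called in these tests are not given here, so the counts do not set the families apart from other features. In mES cells none of the 273 families was called for a QKO change that differed from the sum of the LBRKO and TKO changes. In EpiLCs the QKO change exceeded the sum of the LBRKO and TKO changes for 7 families, of which 5 are among the named families, X11_DNA (1.76 ± 0.553 on the log2 scale, adjusted p = 0.0163), Charlie30a (1.42 ± 0.296, adjusted p = 0.000327), ORSL-2a (1.35 ± 0.46, adjusted p = 0.027), Zaphod4a (1.42 ± 0.507, adjusted p = 0.0348) and MER97b (1.38 ± 0.498, adjusted p = 0.0378), and it was under that sum for Eulor12 (-1.77 ± 0.56, adjusted p = 0.0167). Between the stages, the LBRKO change of X11_DNA in EpiLCs minus that in mES cells was -1.39 ± 0.488 (adjusted p = 0.0479) and its TKO change differed by -1.67 ± 0.548 (adjusted p = 0.0476). The TKO change of ORSL-2a differed by -1.76 ± 0.44 (adjusted p = 0.00637) and the QKO change of Eulor6D by 1.35 ± 0.518 (adjusted p = 0.0476).

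Outside the comparisons, 29 class DNA copies on unplaced sequences without genes held 982 counts. A single copy, Tigger1_dup1047, held 946, and the 29 copies summed to a mean of 0.558 CPM in WT and 1.32 in QKO mES cells, and to 0.422 in WT and 1.20 in QKO EpiLCs.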

How the results depend on the processing

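The QKO rise on outside copies kept its direction in every alternative run, and the numbers of called families and copies varied with the WT libraries, the filter and the replicate block. The cause of each change below was not tested. Against WT replicates 1 to 4 alone, called families numbered 19 in LBRKO mES cells, 104 in QKO mES cells, 9 in LBRKO EpiLCs and 74 in QKO EpiLCs, and called copies 7 in LBRKO mES cells, 5 in TKO mES cells, 3 in LBRKO EpiLCs and 38 between the WT stages, with a log2 ratio of outside to inside copies of -0.22 in LBRKO mES cells (adjusted permutation p = 0.0444). Against WT replicates 5 to 8 alone, families numbered 0 in LBRKO mES cells (edgeR, where all 8 WT libraries gave 1, 106 at unadjusted p under 0.05 and 2 in DESeq2) and 10 in QKO mES cells, and copies 2 in LBRKO mES cells, 7 in TKO mES cells, 3 in LBRKO EpiLCs and 2 in TKO EpiLCs. There no sum passed after adjustment: outside counts were 0.49 in TKO mES cells, 1.10 in QKO mES cells, 1.03 in QKO EpiLCs and -0.35 between the stages, and the ratio was 0.0525 in LBRKO mES cells, 0.575 in TKO mES cells, 0.95 in QKO mES cells, 0.87 in QKO EpiLCs and -0.47 between the stages. With 4 libraries against 4, the exact permutation p before adjustment cannot fall under 0.0286. TKO mES cells, QKO mES cells and QKO EpiLCs reached that value in both measures, so this test could not show a stronger separation for them. Deviations of same-numbered replicates correlated at r from -0.207 to 0.270, with EpiLC replicate 1 positive in every comparison (0.172 to 0.270), but in no comparison did every number pass 0.1, so the numbers were not taken to pair the libraries. With a replicate block, families numbered 14 in LBRKO mES, 5 in TKO mES, 68 in QKO mES cells, 11 in LBRKO EpiLCs and 83 in QKO EpiLCs, and copies 6 in TKO mES cells. DESeq2 gave 2 families in LBRKO mES cells. Copies with a mean of at least 10 counts gave 1 call in LBRKO mES, 5 in TKO mES, 11 in QKO mES cells, 2 in LBRKO EpiLCs, 11 in QKO EpiLCs and 14 between the stages. At 10 kb, outside counts in LBRKO EpiLCs were 0.39. At 50 kb they were -0.17 in LBRKO mES cells, 0.40 in TKO mES cells, 0.31 in QKO EpiLCs and -0.34 between the stages, with ratios of 0.36 in TKO mES cells, 0.49 in QKO mES cells, 0.0634 in QKO EpiLCs and -0.49 between the stages. Without the 100 highest copies, counts were -0.0843 in TKO EpiLCs and -0.12 between the stages, and the ratio 0.0213 in LBRKO mES cells. In alternatives chosen after seeing the data, leaving out FordPrefect_dup191 gave counts of -0.0466 in TKO EpiLCs and -0.33 between the stages, a ratio of 0.0610 in LBRKO mES cells, and DNA over L2 and MIR of 0.0301 in QKO mES cells, 0.10 in QKO EpiLCs and -0.0589 between the stages. GENCODE M39 gave counts of 0.35 in LBRKO EpiLCs and a ratio of 0.35 in QKO EpiLCs. With intronic copies alone as inside copies, the ratio was 0.25 in TKO mES cells, 0.32 in QKO mES cells and 0.24 in QKO EpiLCs. FordPrefect_dup191 was kept in for these ratios and for the GENCODE M39 values.

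Leaving out 1 library at a time, outside counts ran from 0.09 to 0.20 in LBRKO mES, 0.44 to 0.53 in TKO mES, 1.04 to 1.14 in QKO mES cells, 0.26 to 0.46 in LBRKO EpiLCs (past the threshold without WT EpiLC 8 or LBRKO EpiLC 2), 0.07 to 0.26 in TKO EpiLCs, 0.88 to 1.00 in QKO EpiLCs and -0.34 to -0.22 between the stages. The ratio ran from -0.14 to -0.04, 0.39 to 0.48, 0.76 to 0.84, 0.17 to 0.33, 0.10 to 0.41, 0.63 to 0.75 and -0.50 to -0.36 in the same order. Called families ran from 1 to 7, 2 to 3, 22 to 57, 0 to 9, 2 to 3, 29 to 61 and 8 to 13, and from 6 to 18 and 35 to 63 for QKO against TKO in mES cells and EpiLCs. Called copies ran from 0 to 7, 4 to 13, 40 to 56, 3 to 7, 1 to 2, 40 to 43 and 54 to 59. At this depth and filter 97 of 60535 outside copies could be tested, and 22.4% had a count in any library.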
